A study of Homo sapiens with 12 samples.

Results

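The p53 target genes that hold back the cell cycle or signal stress were examined as a group of 10 genes: CDKN1A, GADD45A, BTG2, CCNG1, SFN, PLK2, PLK3, ZMAT3, RPS27L and GDF15. They were chosen by gene symbol as p53 targets, with earlier results of these data known, and each was read from the brightest array row that carried its symbol. 9 of the 10 were measured among 18395 genes, each by 1 row, and BTG2 was not analysed here. RNA came from HEK293T cells, a human embryonic kidney line in which p53 is bound by the large T antigen of SV40. Cells were transfected 78 h before lysis with plasmids encoding a non-targeting control shRNA (shCTRL), shRNAs against UBE4B (shUBE4B), shRNAs against LSD1 (shLSD1), or both (shUBE4B+shLSD1, the double knockdown), with 3 arrays in each of the 4 groups. UBE4B is an E3/E4 ubiquitin ligase that can act on p53, and LSD1 is a histone demethylase, encoded by KDM1A, that can also remove methyl groups from p53. The study's methods state that every group, the control included, also carried a misfolded mutant of SOD1, which the sample labels do not name. Each group is 1 line under transient plasmid delivery, so cells that took up no plasmid were read together with those that did.

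p53 is a transcription factor that is kept scarce by MDM2 and other ubiquitin ligases. When it is stabilised it binds paired copies of a short DNA sequence near its target genes, and some of these targets stop the cell cycle while others repair DNA, alter metabolism or start apoptosis. CDKN1A encodes p21, the cyclin-dependent kinase inhibitor through which p53 is best known to arrest cells. The question put to these arrays was whether RNA of such targets differed when 2 enzymes that can act on p53 were lowered, singly or together.

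The promoters of the 4 members on which the results turn are shown first, since p53 sites are among the sequences that could lie there. They are the 250 bases before the annotated start of transcription in RefSeq (GRCh38.p14), written 5′ to 3′ on the strand of the gene, and promoters of 9 of the 10 members, in 11 windows, were matched in that table, with GADD45A missing. Capitals mark the first of the stretches closest to the p53 decamer, the sequence of 10 letters of which a p53 response element holds a pair. The decamer reads the same way on both strands, so 1 search covers both. RPS27L and PLK2 each hold a stretch that matches all 10 letters, and in CDKN1A and GDF15 the closest stretch matches 8. The windows are chr15:63157478-63157727 on the minus strand for RPS27L, chr5:58460087-58460336 on the minus strand for PLK2, chr6:36678464-36678713 on the plus strand for CDKN1A and chr19:18385908-18386157 on the plus strand for GDF15.
RPS27L: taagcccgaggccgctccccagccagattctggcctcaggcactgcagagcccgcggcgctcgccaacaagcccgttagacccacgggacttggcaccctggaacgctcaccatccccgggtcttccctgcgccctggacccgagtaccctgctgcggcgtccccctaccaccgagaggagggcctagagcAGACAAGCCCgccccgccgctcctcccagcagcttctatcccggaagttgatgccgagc
PLK2: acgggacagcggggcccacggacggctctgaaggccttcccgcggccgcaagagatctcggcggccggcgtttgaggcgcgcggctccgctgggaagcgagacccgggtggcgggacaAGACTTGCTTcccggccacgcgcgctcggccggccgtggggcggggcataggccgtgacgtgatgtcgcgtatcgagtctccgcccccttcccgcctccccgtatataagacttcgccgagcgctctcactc
CDKN1A: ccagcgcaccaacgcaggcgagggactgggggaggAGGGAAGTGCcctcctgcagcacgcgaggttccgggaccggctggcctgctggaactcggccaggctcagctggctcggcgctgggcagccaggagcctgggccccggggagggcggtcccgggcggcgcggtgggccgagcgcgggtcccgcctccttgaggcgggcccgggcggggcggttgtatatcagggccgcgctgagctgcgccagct
GDF15: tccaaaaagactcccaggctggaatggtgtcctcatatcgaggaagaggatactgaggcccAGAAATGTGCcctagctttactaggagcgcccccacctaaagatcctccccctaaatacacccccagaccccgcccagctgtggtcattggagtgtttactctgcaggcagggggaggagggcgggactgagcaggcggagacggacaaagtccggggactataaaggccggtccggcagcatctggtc
Counted from the start of transcription, the full match began at base -59 of RPS27L and at base -132 of PLK2. Among all 35116 promoter windows of this length in the table, 5.57% held a full match to the decamer, and 57.5% held a stretch with 9 or more of its letters. No full match lay in the windows of the other members in the table, which says only that those letters are not in this stretch.

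The knockdowns were visible in the targeted genes. UBE4B signal was at 37.8% of control with shUBE4B (adjusted p = 7.9e-06, limma) and at 37.4% in the double knockdown (adjusted p = 3.4e-06), and KDM1A signal was at 41.6% with shLSD1 (adjusted p = 7.4e-05) and at 46.0% in the double knockdown (adjusted p = 3.4e-05). The 12 arrays correlated with one another at Pearson's r between 0.990 and 0.997 over all rows, and array medians lay between 7.00 and 7.07 on the log2 scale. Among 9 markers of HEK293T cells 2 were called with shUBE4B, 1 with shLSD1 and 2 in the double knockdown, against 10.1%, 0.821% and 7.58% of all genes. LIN28B was higher in all 3 knockdown groups and INA lower in the groups with shUBE4B. The call of LIN28B with shLSD1 was lost without any 1 LSD1 replicate. That of INA with shUBE4B was lost without any 1 UBE4B replicate or control replicate 1 or 2. In the double knockdown INA was lost without control replicate 1 or double knockdown replicate 2. Of 11 markers of colon epithelium 0 were called in any comparison with control. In bulk RNA of this kind, fewer cells with a transcript and less of it per cell cannot be told apart.

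Levels are given as log2 signals, so a difference of 1 is a 2-fold change, and signals of different genes are not set against each other. A gene was called when its Benjamini-Hochberg adjusted p over all 18395 genes was below 0.05 in limma. With UBE4B shRNA alone 0 of the 9 measured members were called, against 10.1% of all genes. With LSD1 shRNA alone 0 of 9 were called, against 0.821% of all genes. With both shRNAs 1 of 9 was called, GDF15, which was higher, against 7.58% of all genes. The median log2 change of the 9 members was 0.06 with UBE4B shRNA, -0.0045 with LSD1 shRNA and 0.11 with both, where the medians of all genes were -0.03, -0.01 and -0.01. These 3 comparisons share the same 3 control arrays.

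**Figure D1:**
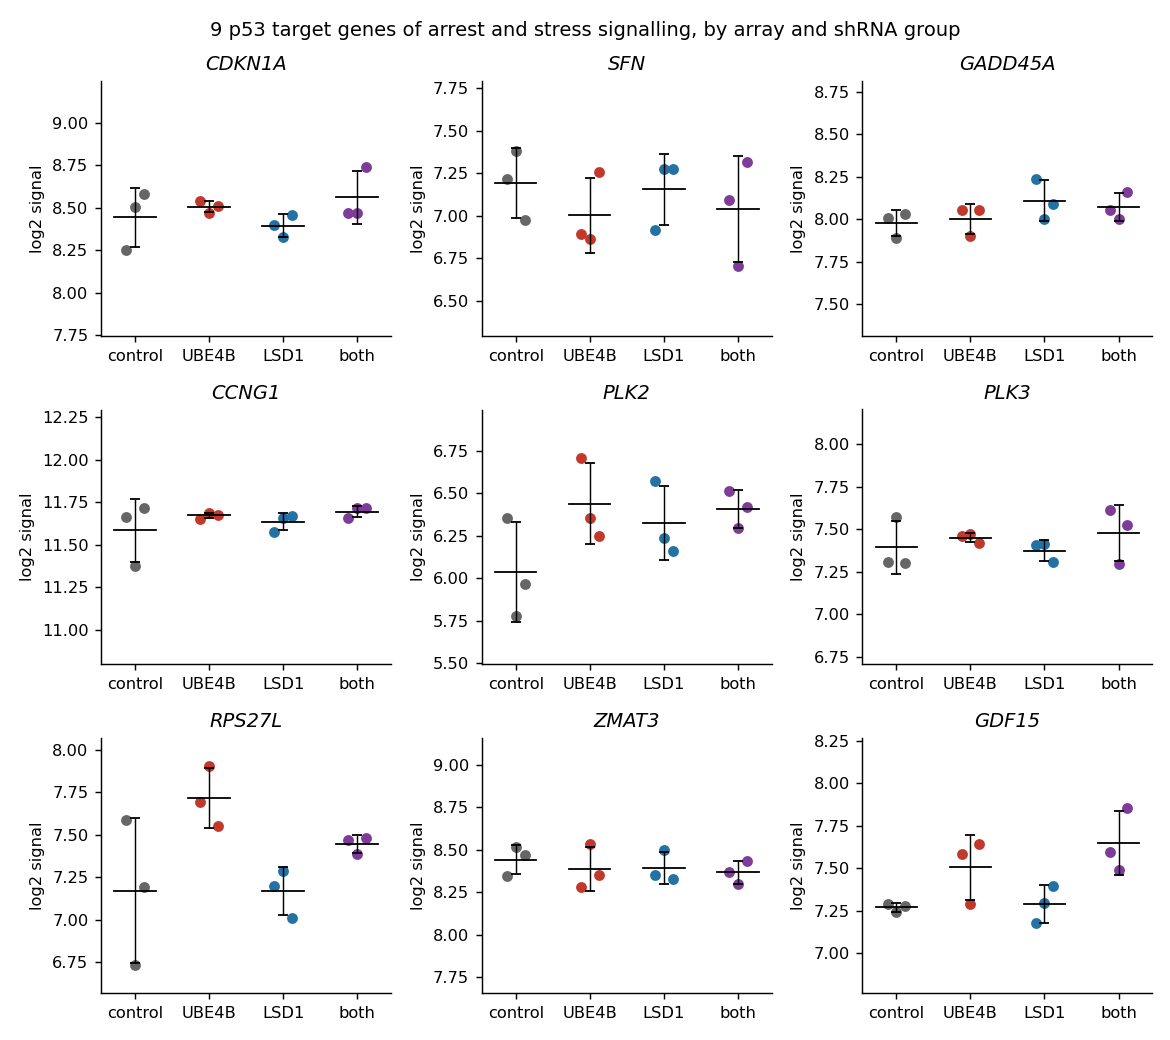
Log2 signal of each measured member (y axes, each spanning 1.5 log2 units) on the 12 arrays, grouped by shRNA (x axes); points are arrays, horizontal lines are group means and bars are SD (n = 3). The 3 GDF15 points of the double knockdown lie above all 3 control points, and the control points of RPS27L and PLK2 are spread more widely than those of GDF15.

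CDKN1A read 8.25, 8.50 and 8.58 in the 3 control arrays, 8.54, 8.47 and 8.51 with UBE4B shRNA, 8.40, 8.33 and 8.46 with LSD1 shRNA, and 8.47, 8.47 and 8.74 in the double knockdown. All 3 knockdown groups overlapped the control, whose lowest array lay below every other array of the 12. The log2 change of CDKN1A was 0.06 with UBE4B shRNA (SE 0.09, 95% interval -0.14 to 0.26, adjusted p = 0.69, limma) and -0.05 with LSD1 shRNA (95% interval -0.25 to 0.15, adjusted p = 0.88). With both shRNAs it was 0.12 (SE 0.09, 95% interval -0.08 to 0.32, adjusted p = 0.54).

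SFN encodes 14-3-3 sigma, which holds cyclin B1 with CDK1 out of the nucleus. Its 12 arrays ranged from 6.70 to 7.38, and its log2 change was -0.19 with UBE4B shRNA, -0.04 with LSD1 shRNA and -0.15 with both (adjusted p = 0.48, 0.95 and 0.67, limma). SFN was among the least repeatable genes on these arrays, with a residual SD within groups of 0.24 at the 98.4th percentile of all genes, against a median of 0.10. GADD45A, a stress protein that binds CDK1, PCNA and the kinase MAP3K4, ranged from 7.89 to 8.24, with log2 changes of 0.03, 0.13 and 0.10 in the same order (adjusted p = 0.85, 0.50 and 0.55). CCNG1 encodes cyclin G1, which recruits protein phosphatase 2A to MDM2, and ranged from 11.37 to 11.72. Its lowest value was control replicate 2, and its log2 changes were 0.09, 0.05 and 0.11 (adjusted p = 0.50, 0.85 and 0.48). None of these 3 genes separated from the control in any knockdown group.

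PLK2 and PLK3 encode polo-like kinases that answer stress and DNA damage. PLK2 read 6.36, 5.78 and 5.97 in the control arrays, 6.71, 6.36 and 6.25 with UBE4B shRNA, 6.57, 6.24 and 6.16 with LSD1 shRNA, and 6.51, 6.29 and 6.42 in the double knockdown. 2 of the 3 control arrays were below every knockdown array, and control replicate 1 lay within each knockdown group. The log2 change was 0.40 with UBE4B shRNA (SE 0.15, 95% interval 0.07 to 0.73, adjusted p = 0.11, limma), 0.29 with LSD1 shRNA (adjusted p = 0.45) and 0.37 with both (95% interval 0.05 to 0.70, adjusted p = 0.17). Without control replicate 1 the change with UBE4B shRNA was 0.56 (adjusted p = 0.032) and that with both was 0.54 (adjusted p = 0.052). PLK2 was also a variable gene, with a residual SD at the 97.6th percentile, and it was among the 40% of genes with the dimmest signal. PLK3 ranged from 7.30 to 7.61 over the 12 arrays and its log2 changes were 0.06, -0.02 and 0.08 (adjusted p = 0.72, 0.96 and 0.68).

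RPS27L encodes a ribosomal protein that closely resembles RPS27 and that binds MDM2. It read 7.59, 6.73 and 7.19 in the control arrays, 7.69, 7.90 and 7.55 with UBE4B shRNA, 7.20, 7.29 and 7.01 with LSD1 shRNA, and 7.47, 7.39 and 7.48 in the double knockdown. The control arrays alone spanned more than the other 3 groups each did, and control replicate 1 overlapped the UBE4B group. With UBE4B shRNA the log2 change was 0.55 (SE 0.16, 95% interval 0.19 to 0.90), the largest of any member in a comparison with control, and its adjusted p was 0.0502 (limma), just above the limit. Without control replicate 1 it was 0.75 (adjusted p = 0.0080), and over all the alternatives its adjusted p ran from 0.0080 to 0.36. With both shRNAs the change was 0.27 (95% interval -0.08 to 0.63, adjusted p = 0.38) and with LSD1 shRNA it was -0.0045 (adjusted p = 0.99). RPS27 had 2 rows, of which only the brighter was read here. That row changed by 0.02, 0.04 and 0.02 with UBE4B shRNA, LSD1 shRNA and both (adjusted p = 0.82, 0.85 and 0.91, limma). Whether the probes of RPS27L also take up RPS27 transcripts was not tested. ZMAT3, an RNA-binding zinc finger protein, was the steadiest member, spanning 0.25 log2 units over the 12 arrays, with changes of -0.05, -0.05 and -0.08 (adjusted p = 0.69, 0.84 and 0.67).

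GDF15 encodes a secreted stress cytokine of the TGF-beta family, induced by p53 and also by the stress factor ATF4. Its control arrays read 7.29, 7.24 and 7.28, the tightest control values of any member. The values were 7.59, 7.29 and 7.64 with UBE4B shRNA, 7.18, 7.30 and 7.40 with LSD1 shRNA, and 7.60, 7.49 and 7.86 in the double knockdown. The double knockdown arrays were all above the control arrays, whereas replicate 2 of the UBE4B group lay at the level of the control. The log2 change in the double knockdown was 0.38 (SE 0.10, 95% interval 0.15 to 0.60, adjusted p = 0.044, limma), a 1.30-fold rise. It was 0.24 with UBE4B shRNA (95% interval 0.01 to 0.46, adjusted p = 0.17) and 0.02 with LSD1 shRNA (95% interval -0.21 to 0.25, adjusted p = 0.96). The rise in the double knockdown kept its direction in 22 of 22 alternative settings, but its adjusted p ran from 0.019 to 0.26 and was below 0.05 in 9 of them. Of the 12 fits that left out 1 array each it was called in 3, those without UBE4B replicate 2, UBE4B replicate 3 or double knockdown replicate 2. Leaving out any 1 of the other 9 arrays gave an adjusted p from 0.051 to 0.17, the highest of them without double knockdown replicate 3, when the change was 0.27.

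**Figure D2:**
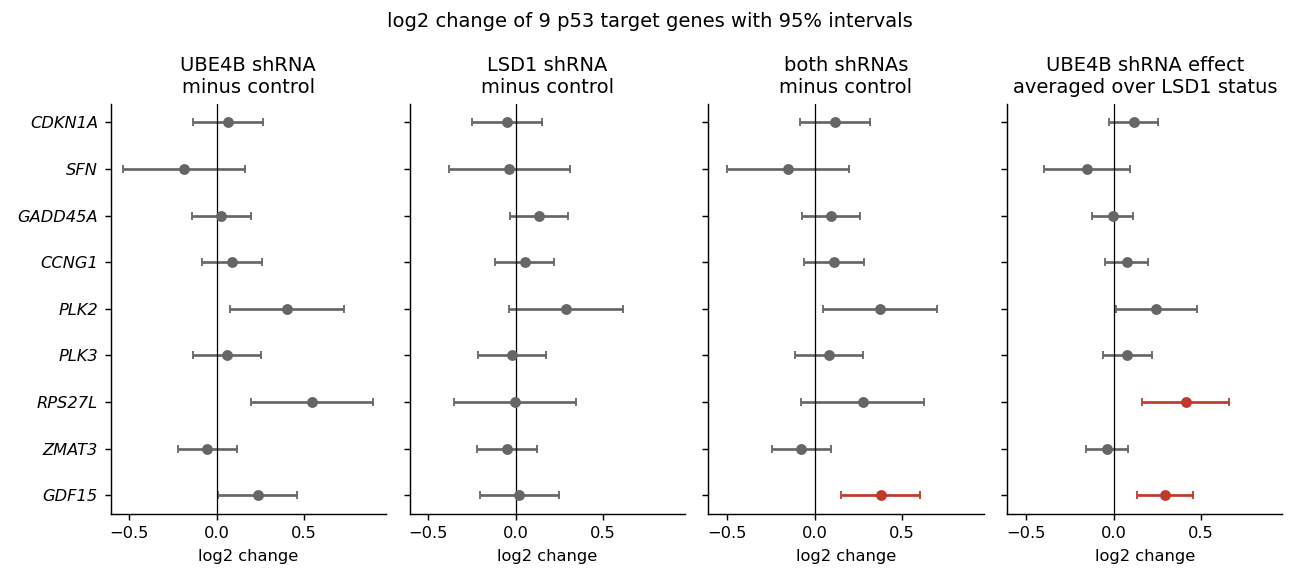
Log2 change (x axes) of each member with its 95% interval in the 3 comparisons with control and for the UBE4B shRNA effect averaged over LSD1 status; red marks an adjusted p below 0.05. GDF15 is red in the double knockdown, GDF15 and RPS27L are red in the averaged effect, and the intervals of CDKN1A include 0 in all 4 panels.

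Other call rules were set beside this one. Arrays of all 3 replicates lay beyond all 3 control arrays, in either direction, for 0 of 9 members with UBE4B shRNA, where this held for 30.3% of all genes. The same count was 0 of 9 with LSD1 shRNA against 16.6% of all genes, and 1 of 9 in the double knockdown, GDF15, against 21.9%. At an unadjusted p below 0.05 in limma, PLK2, RPS27L and GDF15 passed with UBE4B shRNA (3 of 9, against 27.5% of all genes), 0 of 9 passed with LSD1 shRNA (against 13.4%), and PLK2 and GDF15 passed in the double knockdown (2 of 9, against 20.7%). At the limits that the study's methods give for its own analysis, an unadjusted p below 0.05 in the methods' t-test and a change of at least 1.2-fold, 0 members passed with UBE4B shRNA (8.49% of all genes did), 0 with LSD1 shRNA (2.63%) and 1, GDF15, in the double knockdown (6.58%). After adjustment that test called 0 members in each of these comparisons. Of all 18395 genes it called 46 with UBE4B shRNA, 1 with LSD1 shRNA and 48 in the double knockdown. With so few genes called, 0 of 9 members says little under that rule. The share of members called was thus near or below that of all genes under every other rule with UBE4B shRNA or LSD1 shRNA alone. In the double knockdown it was above that of all genes for 1 of 9 against 7.58% and 6.58% and for 2 of 9 against 20.7%. There it was below that of all genes for 1 of 9 against 21.9%. With 9 members, 1 call more or less moves such a share widely, so neither a shortfall nor an excess can be read from it.

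The design also allows each shRNA to be compared with and without the other. When LSD1 shRNA was added to UBE4B shRNA, 0 of 9 members were called (0.147% of all genes were), and 0 of 9 passed an unadjusted p below 0.05 (13% of all genes). RPS27L was the 1 member whose arrays did not overlap, with all 3 of the double knockdown below all 3 of the UBE4B group (log2 change -0.27, 95% interval -0.62 to 0.08, adjusted p = 0.49, limma), where 23.2% of all genes did not overlap. When UBE4B shRNA was added to LSD1 shRNA, 0 of 9 were called, against 2.78% of all genes, and GDF15 alone passed an unadjusted p below 0.05, against 15.4%. The arrays of CDKN1A, RPS27L and GDF15 did not overlap in that comparison, 3 of 9 members against 23% of all genes, and all 3 genes were higher in the double knockdown. Their log2 changes were 0.17 for CDKN1A (95% interval -0.03 to 0.36, adjusted p = 0.44), 0.28 for RPS27L (95% interval -0.07 to 0.63, adjusted p = 0.46) and 0.36 for GDF15 (95% interval 0.13 to 0.58, adjusted p = 0.096).

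Averaging the UBE4B shRNA effect over both LSD1 states uses all 12 arrays, 6 with and 6 without UBE4B shRNA. In this average 2 of the 9 members were called, both higher, against 12.3% of all genes. RPS27L was higher by 0.41 (SE 0.11, 95% interval 0.16 to 0.66, adjusted p = 0.033, limma) and GDF15 by 0.30 (SE 0.07, 95% interval 0.14 to 0.46, adjusted p = 0.019). PLK2 was at 0.24 (adjusted p = 0.17) and CDKN1A at 0.11 (95% interval -0.03 to 0.26, adjusted p = 0.30), and 3 of 9 members, PLK2, RPS27L and GDF15, passed an unadjusted p below 0.05, against 25.9% of all genes. The call of GDF15 was lost without UBE4B replicate 1, UBE4B replicate 3 or LSD1 replicate 1 (adjusted p from 0.051 to 0.053), and that of RPS27L without any 1 of 7 arrays (adjusted p from 0.052 to 0.082): UBE4B replicates 1 and 2, LSD1 replicates 1 and 3, and the 3 of the double knockdown. Averaged over UBE4B states, the LSD1 shRNA effect called 0 of 9 members, against 1.48% of all genes, and 0 of 9 passed an unadjusted p below 0.05, against 13%. The interaction of the 2 shRNAs called 0 of 9 members and 0% of all genes, with 0 of 9 members and 13.1% of genes at an unadjusted p below 0.05. Member values in the interaction ran from -0.32 for PLK2 (95% interval -0.78 to 0.15) to 0.12 for GDF15 (95% interval -0.20 to 0.44).

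**Figure D3:**
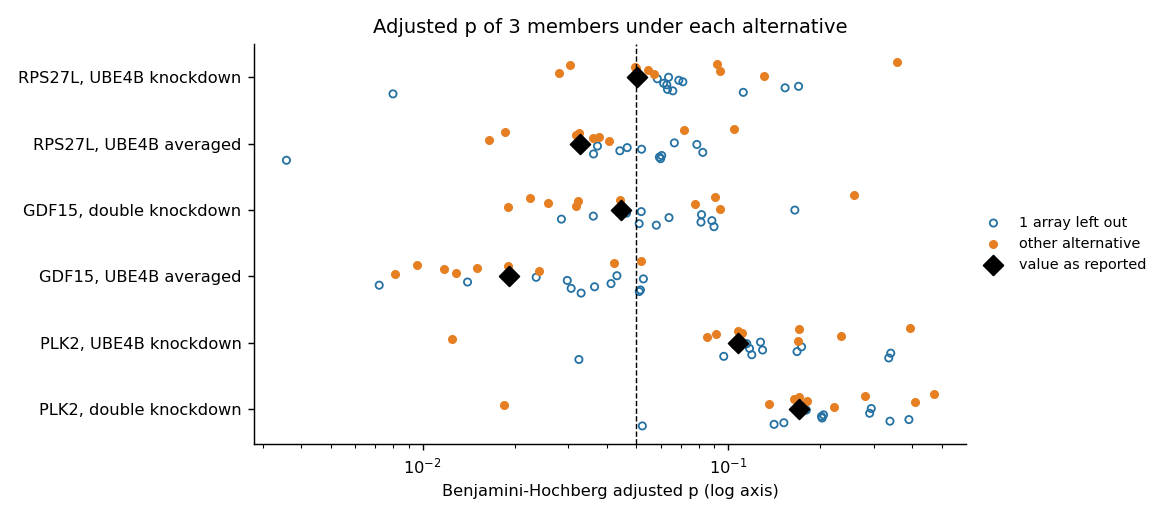
Benjamini-Hochberg adjusted p (x axis, log scale) of RPS27L, GDF15 and PLK2 as reported (diamonds), with 1 array left out (open circles) and under the other alternatives (filled circles); the dashed line is 0.05. The reported values of RPS27L with UBE4B shRNA (0.0502) and of GDF15 in the double knockdown (0.044) sit next to the line, with alternatives on both sides of it.

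Close relatives of the members were read in the same way, 23 genes of the same families. With UBE4B shRNA 2 of the 23 rose and 1 fell, 3 of 23 against 10.1% of all genes. CDKN1B, which encodes the kinase inhibitor p27, rose by 0.33 (SE 0.07, adjusted p = 0.013, limma), with all 3 arrays above the control, while CDKN1C, which encodes p57, was at -0.11 (adjusted p = 0.45). ZMAT1 rose by 0.45 (adjusted p = 0.0011), and CCNG2, which encodes cyclin G2, fell by 0.37 (adjusted p = 0.010). Without UBE4B replicate 3 the calls of CDKN1B and CCNG2 were lost and 1 of the 3 was left. In the double knockdown ZMAT1 was higher by 0.29 (adjusted p = 0.012) and CCNG2 lower by 0.43 on the log2 scale (log2 change -0.43, adjusted p = 0.0043), whereas CDKN1B was at 0.07 (adjusted p = 0.66). That is 2 of 23 against 7.58% of all genes, and without control replicate 1 the call of ZMAT1 was lost. LSD1 shRNA called 0 of the 23, against 0.821% of all genes, with CDKN1B at -0.16 (adjusted p = 0.36). The difference between members and relatives was not tested.

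Among 24 genes for the proteins that the members bind or act on, 2 were called in each comparison with control, where the shares of all genes were 10.1% with UBE4B shRNA, 0.821% with LSD1 shRNA and 7.58% with both. CCND1, the cyclin whose kinases p21 and p27 bind, fell by 0.66 with UBE4B shRNA (SE 0.09, adjusted p = 8.0e-04, limma) and by 0.46 in the double knockdown (adjusted p = 0.0057), and was at 0.03 with LSD1 shRNA (adjusted p = 0.91). CCND2 fell by 0.29 with UBE4B shRNA (adjusted p = 0.037), a call that 11 of 22 alternatives lost, among them the fits without any 1 of the UBE4B replicates, control replicates 2 and 3 or LSD1 replicates 2 and 3. The kinase gene CDK6 rose by 0.42 with LSD1 shRNA (adjusted p = 0.042) and by 0.39 in the double knockdown (adjusted p = 0.013), and CCNE1, which encodes cyclin E1, rose by 0.34 with LSD1 shRNA (adjusted p = 0.040). The 2 calls with LSD1 shRNA were kept in 9 of 22 alternatives for CDK6 and in 8 of 22 for CCNE1, and both were lost in 9 of the 12 fits that left out 1 array: without any LSD1 or UBE4B replicate, control replicates 1 and 2 and double knockdown replicate 2. CCNE1 was also lost without control replicate 3 and CDK6 without double knockdown replicate 3. In the double knockdown CDK6 was lost without its replicate 2 or 3. Median changes of the 24 genes were 0.03 with UBE4B shRNA, -0.03 with LSD1 shRNA and -0.005 with both.

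**Figure D4:**
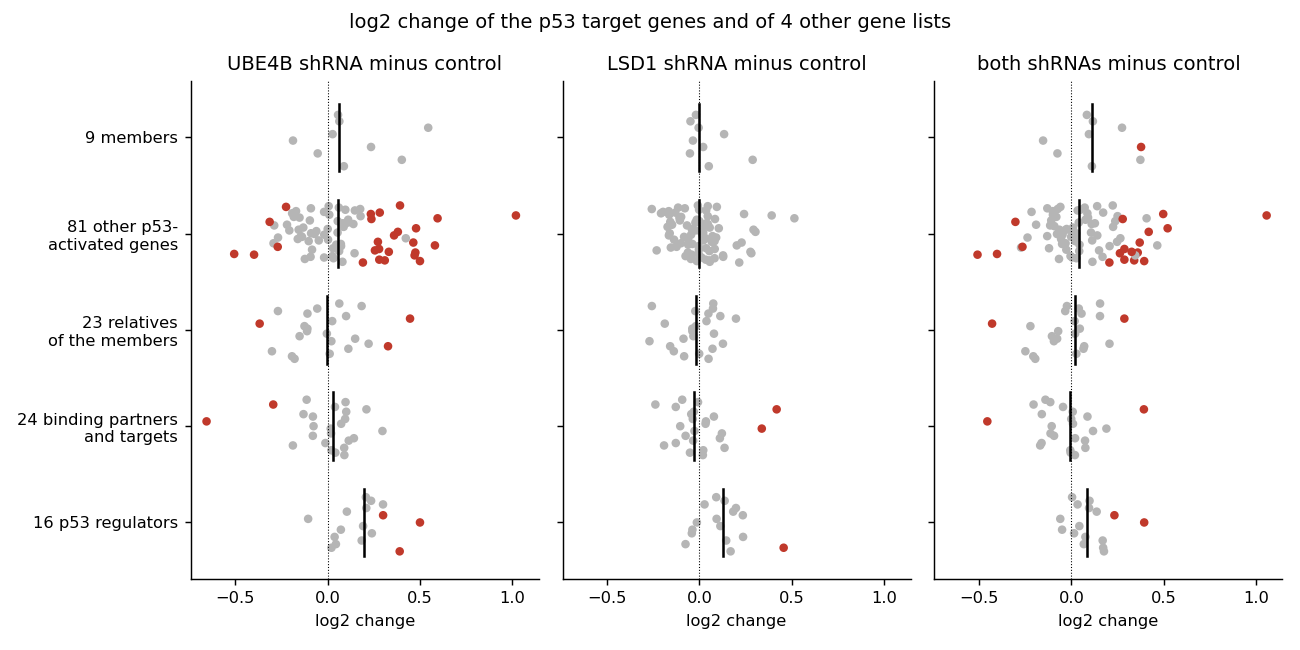
Log2 change (x axes) of every measured gene of 5 lists (rows) in the 3 comparisons with control; each point is a gene, red points have an adjusted p below 0.05 and vertical bars are list medians. With UBE4B shRNA 26 of the 81 other p53-activated genes are red and 0 of the 9 members.

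Other genes known to be activated by p53 were counted for comparison, 81 measured of 84 listed. With UBE4B shRNA 21 rose and 5 fell, 26 of 81 against 10.1% of all genes, with a list median of 0.05. FAS, which encodes a death receptor, rose by 1.02 (adjusted p = 3.2e-04, limma), KITLG, the ligand of the receptor KIT, by 0.60 (adjusted p = 0.0090), DRAM1, a regulator of autophagy, by 0.58 (adjusted p = 0.041), MDM2 by 0.50 (adjusted p = 0.0041) and INPP5D, an inositol phosphatase, by 0.48 (adjusted p = 0.0097). PMAIP1, which encodes the apoptosis protein NOXA, fell by 0.51 (adjusted p = 0.0011). The call of DRAM1 was kept in 12 of 22 alternatives. With both shRNAs 14 were higher and 4 lower, 18 of 81 against 7.58% of all genes, with FAS at 1.06 (adjusted p = 1.5e-04), RNF19B at 0.50 (adjusted p = 5.8e-04) and TIGAR, a regulator of glycolysis, at 0.42 (adjusted p = 0.020) among the higher, and PMAIP1 at -0.40 (adjusted p = 0.0035) among the lower. LSD1 shRNA called 0 of the 81, against 0.821% of all genes (151 of 18395). With trend and robust eBayes it called 4 of the 81, against 361 of 18395 genes. Without the 40% dimmest genes it called 4 of 69, against 362 of 11037, and all of these were higher. The methods' t-test, after adjustment, called 0 of the 81 with UBE4B shRNA and 0 with both, and of all 18395 genes it called 46 and 48. Nor did it call UBE4B or KDM1A in the double knockdown. When only the 6 arrays compared were fitted, 7 were higher and 2 lower with UBE4B shRNA, and 4 and 2 in the double knockdown. Those fits called 692 and 420 of all 18395 genes, where the reported fit called 1853 and 1394. With UBE4B shRNA the counts were 10 higher and 3 lower without UBE4B replicate 1, 12 and 3 without replicate 2, and 11 and 2 without replicate 3, and in the double knockdown they were 8 and 4 without its replicate 3 and 9 and 3 without control replicate 1. Calls among all 18395 genes fell as well, to 910, 927 and 919 without UBE4B replicates 1, 2 and 3. In the double knockdown they fell to 930 without its replicate 3 and to 950 without control replicate 1. Whether members and other targets differ was not tested.

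Of 16 measured regulators of p53, MDM2, which is in both lists, ATM and EP300 rose with UBE4B shRNA, ATM by 0.39 (adjusted p = 0.0087, limma) and EP300 by 0.30 (adjusted p = 0.0047), 3 of 16 against 10.1% of all genes. In the double knockdown MDM2 was higher by 0.39 (adjusted p = 0.015) and EP300 by 0.23 (adjusted p = 0.019), 2 of 16 against 7.58% of all genes, and the call of MDM2 was lost without double knockdown replicate 1 or 3 and that of EP300 without replicate 2. With LSD1 shRNA HIPK2 rose by 0.46 (adjusted p = 0.013), 1 of 16 against 0.821% of all genes, a call lost without LSD1 replicate 1 or 3, while MDM2 was at -0.01 (adjusted p = 0.97). Since GDF15 also answers ATF4 and PLK2 also answers serum, ATF4 targets and immediate early genes were read too. Of 15 ATF4 targets 6 fell with UBE4B shRNA (against 10.1% of all genes called in either direction) and 4 in the double knockdown (against 7.58%), and 0 rose, with PSAT1, a serine synthesis enzyme, falling by 0.63 (adjusted p = 1.1e-04) and 0.57 (adjusted p = 1.1e-04), and ASNS, asparagine synthetase, falling by 0.48 (adjusted p = 0.010) and 0.38 (adjusted p = 0.032). STC2, a secreted glycoprotein, fell by 0.55 (adjusted p = 0.0010) and 0.45 (adjusted p = 0.0028), and SLC7A11, a cystine transporter, by 0.44 (adjusted p = 0.018) and 0.42 (adjusted p = 0.024). In the double knockdown the calls of ASNS and SLC7A11 were both lost without double knockdown replicate 1 or 2 or control replicate 3, which left 2 of the 4. LSD1 shRNA called 0 of the 15, against 0.821% of all genes. Of 14 immediate early genes, which answer growth factors within minutes, 7 fell with UBE4B shRNA, against 10.1% of all genes called, among them FOSB by 0.51 (adjusted p = 0.016) and NR4A1 by 0.38 (adjusted p = 0.028). Of these 7 calls 0 were kept without UBE4B replicate 2, 1 without control replicate 2, 2 without UBE4B replicate 3 and 3 without UBE4B replicate 1, and 4 were kept without control replicate 1, control replicate 3 or LSD1 replicate 2. DUSP1 was the 1 call of the 14 in the double knockdown, where it fell by 0.30 (adjusted p = 0.0076; 7.58% of all genes were called), and 0 were called with LSD1 shRNA (0.821% of all genes). Their part in the values of GDF15 and PLK2 was not tested.

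GDF15 was the 1 member called against control in a group with UBE4B shRNA, and the genes whose pattern was most like it over the 12 arrays were TXNIP, HGSNAT and GSTZ1. Likeness was the root mean square difference of log2 values after each gene was centred on its own mean, and was 0.088 for TXNIP, 0.098 for HGSNAT and 0.10 for GSTZ1, where the root mean square of GDF15 about its mean was 0.20. TXNIP encodes an inhibitor of thioredoxin, HGSNAT a lysosomal acetyltransferase and GSTZ1 a glutathione transferase. The 12 arrays fall into 4 groups, so likeness includes the shared group differences.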

How the data were processed

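RNA of HEK293T cells, 4 shRNA groups of 3 biological replicates taken from the sample labels, was hybridised by the authors to Affymetrix Human Gene 1.0 ST arrays. The values deposited by the authors are log2 signals per transcript cluster, made by RMA in Partek per the labels (background correction, quantile normalization, probe summary), annotated on hg19; no versions are given in the sources used here. RMA draws the arrays to one distribution, so a shift of all genes together cannot be seen. The number of arrays limits the precision. Columns of the authors' own comparisons were not used.

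Of 33297 clusters, 19460 carried 1 gene symbol in the platform annotation, 1754 carried several and were left out, and 12083 were unnamed here. Symbols were updated with RefSeq names, and the brightest cluster stood for a gene. The comparisons used limma 3.58.1 under R 4.3.3 (lmFit, then eBayes, 4 group means, all 12 arrays, 8 residual and 5.13 prior degrees of freedom, no replicate block), with Benjamini-Hochberg adjustment over 18395 genes and intervals of 95%. A plain t-test is what the methods name, and was an alternative. Others were a fit on the 6 arrays compared, a replicate block, trend and robust eBayes, array weights, further quantile normalization, median centring, the mean of a gene's clusters, all clusters, removal of the 40% dimmest genes, and leaving out each array. The procedure was tested on simulated data.

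The members and gene lists were chosen with earlier results of these data known, so list counts are descriptions. Names were taken from all members, the shRNA targets, MDM2, RPS27, CDKN1B, CDKN1C, the genes of each list (at most 6) that changed most against control among those called, and the 3 genes most like a called member; not every gene the rule allows is printed, and an item it allows is not reported here. Figures were drawn with Python 3.11.15 and matplotlib 3.10.9.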

Additional observations from a re-analysis of the deposited data

How the results depend on the processing

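The counts of members called moved as follows. With UBE4B shRNA the count was 0, and it was 1 with the replicate block (PLK2) and 1 each with trend and robust eBayes, median-centred arrays, genes averaged over their clusters or the 40% dimmest genes removed (RPS27L each time), while leaving out 1 array gave 0 to 2, the highest without control replicate 1 (PLK2 and RPS27L). Of all 18395 genes, 1853 were called in the reported fit and 2307, 2370, 1813 and 1862 in the first 4 of these alternatives. With the dimmest removed 2311 of 11037 were called. Leaving out 1 array gave 910 to 2329, with 1715 without control replicate 1. In the double knockdown the count was 1. It was 0 with the fit on 6 arrays, with array weights, with all transcript clusters and with the methods' t-test. It was 2 with the replicate block (PLK2 and GDF15), while leaving out 1 array gave 0 to 1. Of all genes, 1394 were called in the reported fit there. The fit on 6 arrays called 420, array weights 1200, the methods' t-test 48 and the replicate block 1819. With all transcript clusters 1194 clusters were called, out of a larger number tested. Leaving out 1 array gave 861 to 1548 genes, with 1 member called at the lowest and 0 at the highest. Double against LSD1 shRNA gave 0 members, and 1 with the replicate block (GDF15), where 511 and 685 of all 18395 genes were called. The averaged UBE4B effect gave 2 members, then 3 with the replicate block (PLK2, RPS27L and GDF15), 1 with all transcript clusters and 0 with the methods' t-test. Leaving out 1 array gave 0 to 3. The lowest was without UBE4B replicate 1 or LSD1 replicate 1 and the highest without control replicate 1 (PLK2, RPS27L and GDF15). Of all genes, this effect called 2270 in the reported fit, 2689 with the replicate block and 1576 with the methods' t-test. With all transcript clusters it called 2214 clusters, out of a larger number tested. Leaving out 1 array gave 1672 to 2461 genes. Among these fits it called 1685 without UBE4B replicate 1, 1734 without LSD1 replicate 1 and 2135 without control replicate 1. The causes of these moves were not tested. Some of the settings themselves use fewer arrays or test more rows. Over 1540 single values of members under alternatives, 1503 stayed on the same side of the limit, 26 lost the call, 11 gained one and 0 reversed a called direction. PLK2 has no value once the dimmest genes are removed, since it was among them. Deviations of same-numbered arrays from their group means correlated over 0.1 in 5 of 6 pairs of replicate 1, 5 of 6 of replicate 3 and 0 of 6 of replicate 2 (range -0.08 to 0.33), and 9 of 12 arrays correlated best, on average, with their own number. The labels do not say that a number marks a shared batch, and pairing was accepted only if every pair passed, so the block is another fit and not the reported one.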
